A study of Homo sapiens with 9 samples.

Results

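The genes described here are 10 members of the bone morphogenetic protein (BMP) pathway, chosen by symbol: the ligands BMP2, BMP4 and BMP7, the receptors BMPR1A and BMPR2, the inhibitor SMAD6, and the target genes ID1, ID2, ID3 and ID4. All 10 were found among the 62666 genes of the expression tables, and 8 of them were among the 17910 genes with enough counts to test. BMP ligands are secreted proteins that bring type I and type II receptor kinases together. The activated receptors phosphorylate SMAD1, SMAD5 and SMAD9, which enter the nucleus with SMAD4 and switch on the ID genes, while SMAD6 blocks the same route. ID proteins have a helix-loop-helix domain but no DNA-binding basic region, so they hold E proteins and related factors away from DNA. In mammary epithelium ID1 is known for keeping cells proliferative and less differentiated, while ID2 is known as needed for alveolar differentiation.

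Polyadenylated RNA from 3 related human breast cell lines was sequenced, with 3 libraries per line, in a study of how the transcriptome changes as breast cancer progresses. MCF10A does not form tumours and is derived from mammary epithelium. MCF10AT1 descends from it and carries an activated HRAS gene, and MCF10Ca1a belongs to the same lineage and forms malignant tumours in mice. All 3 lines were kept in DMEM/F12 with horse serum, insulin, epidermal growth factor, hydrocortisone and cholera toxin. The serum was at 5% for MCF10A and MCF10Ca1a and at 2.5% for MCF10AT1, so in every comparison that includes MCF10AT1 the line and the serum level cannot be told apart. Each stage is represented by 1 line, and nothing says that the libraries of a line came from separate cultures. The p-values below therefore measure only the spread between these libraries, which may be technical.

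Library totals were 64.2 to 69.5 M counts in MCF10A, 62.9 to 68.1 M in MCF10AT1 and 32.9 to 35.2 M in MCF10Ca1a (M, mega), so genes of low level were measured less precisely in MCF10Ca1a. The labelled epithelial identity was checked with 7 marker genes (EPCAM, CDH1, KRT5, KRT8, KRT18, KRT19 and TP63), whose summed level was 1620 to 3015 TPM (transcripts-per-million, a level that allows for transcript length) over the 9 libraries. The sum covers unequal changes of single markers: 5 of the 7 were higher and 1 lower in MCF10AT1 against MCF10A, 6 higher and 1 lower in MCF10Ca1a against MCF10A, and 4 higher and 2 lower in MCF10Ca1a against MCF10AT1. The means in MCF10A, MCF10AT1 and MCF10Ca1a were 40.1, 169.7 and 389.8 TPM for EPCAM, 41.5, 37.2 and 231 TPM for CDH1, 1423, 1632 and 419.6 TPM for KRT5, and 0.0566, 0.256 and 7.32 TPM for KRT19. The part of these marker differences in the results below was not tested. Sums over the marker lists of other cell types were 1.94 to 31.5 TPM for fibroblasts, 0.757 to 20.8 TPM for endothelium and 2.72 to 33.2 TPM for leukocytes. Single genes carried the upper ends, DCN in MCF10AT1 and PECAM1 and CD68 in MCF10Ca1a. The defining markers CDH5, PTPRC and COL3A1 were each at a mean of 1.33 counts or fewer in every line, and CD3E was at 0 counts in all of them. In bulk RNA, fewer cells that express a gene and less of its RNA per cell cannot be told apart.

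The BMP pathway genes moved in different directions along the series. BMP2 rose from MCF10A to MCF10AT1 and again to MCF10Ca1a, BMP4 rose and then fell, both receptors fell at each step, and ID1, ID2 and ID3 fell in MCF10AT1 and rose again in MCF10Ca1a. In MCF10AT1 against MCF10A, 7 of the 8 tested members passed an adjusted p of 0.05 (edgeR quasi-likelihood test, Benjamini-Hochberg adjustment over all genes), 2 higher and 5 lower, where 61.6% of all tested genes passed (29.8% of all tested genes higher, 31.8% lower). In MCF10Ca1a against MCF10A all 8 passed, 3 higher and 5 lower, beside 80.9% of all tested genes (39.0% higher, 41.9% lower). In MCF10Ca1a against MCF10AT1 all 8 passed, 4 higher and 4 lower, beside 78.4% of all tested genes (38.0% higher, 40.3% lower). With so many genes past the threshold, these counts say little about the members, so the sizes of the changes are given too. The median size of change, without its sign, was 1.03, 0.92 and 1.52 on the log2 scale for the 8 members in these comparisons, against 0.38, 0.84 and 0.76 for all tested genes. The members were chosen with earlier results of these data known, so the larger sizes may follow from that choice and are only a description. Each pair of comparisons has a line in common and is not independent.

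The balance of all genes differed between the fit to counts and a limma fit to log2(TPM + 1). Higher genes made up 48.4%, 48.2% and 48.5% of those called in the same order of comparisons from counts, and 35.7%, 54.7% and 61.2% on the log2(TPM + 1) scale, where the median of all genes shifted by -0.10, 0.09 and 0.20. The TPM fit also used another test and 14468 genes, so the part of the scale alone was not tested. With DESeq2 size factors in the edgeR fit the shares were 47.7%, 49.8% and 50.6%. For every called member the 3 libraries of one line did not overlap those of the other in counts-per-million (CPM, library totals scaled by TMM factors). This is common in these data: 65.4%, 81.5% and 81.9% of all tested genes did not overlap in the same order of comparisons, and 96.7%, 97.5% and 98.7% of the called ones.

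**Figure D1:**
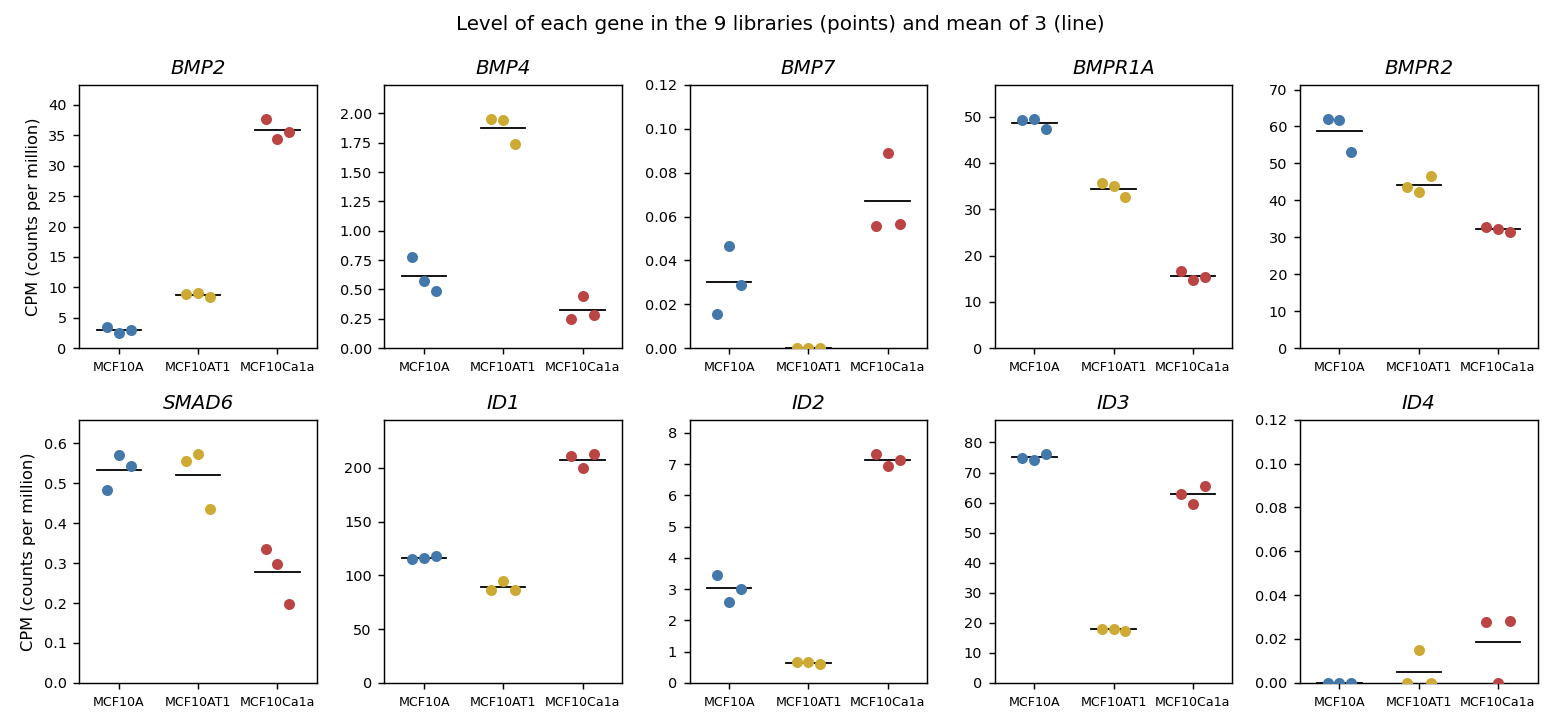
Level in CPM (vertical axis, linear, from 0, its own range in each panel) of the 10 genes in each of the 9 libraries. Points are libraries, the line is the mean of 3. BMP2 climbs across the lines, BMPR1A and BMPR2 descend, ID2 and ID3 are lowest in MCF10AT1, and BMP7 and ID4 stay below 0.0892 CPM or at that value in every library.

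BMP2 (ENSG00000125845.7, chr20:6767664-6780280, plus strand, GRCh38) encodes a ligand that signals through BMPR1A and BMPR2. Its level in the 3 libraries was 3.49, 2.49 and 3.05 CPM in MCF10A, 8.85, 9.13 and 8.43 CPM in MCF10AT1, and 37.6, 34.4 and 35.5 CPM in MCF10Ca1a. The lines were fully separated, with MCF10A lowest and MCF10Ca1a highest. BMP2 rose by 1.55 ± 0.0971 (SE) on the log2 scale in MCF10AT1 against MCF10A (adjusted p = 9.97e-09). It rose by a further 2.03 ± 0.0839 from MCF10AT1 to MCF10Ca1a (adjusted p = 4.73e-11). Together these made MCF10Ca1a 11.9-fold higher than MCF10A (log2 change 3.57 ± 0.0943, adjusted p = 3.86e-13), the largest change from MCF10A among the 8 tested genes. The tables list 1 BMP2 transcript. The summed level of 5 endothelial markers was also highest in MCF10Ca1a, at 0.757 to 0.988 TPM in MCF10A, 0.934 to 1.36 TPM in MCF10AT1 and 15.7 to 20.8 TPM in MCF10Ca1a. In MCF10Ca1a against MCF10A 1 of its 3 tested genes was higher (PECAM1) and 2 were lower, and the defining markers CDH5 and VWF were at a mean of 1.33 counts or fewer in every line; the part of these genes in the result was not tested.

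BMP4 (ENSG00000125378.16, chr14:53949736-53958761, minus strand) encodes a close relative of BMP2 that binds the same receptors. It was counted at 50, 37 and 34 in MCF10A, at 130, 129 and 108 in MCF10AT1 and at 9, 15 and 10 in MCF10Ca1a, which is 0.780, 0.572 and 0.487 CPM, 1.95, 1.95 and 1.74 CPM, and 0.252, 0.446 and 0.282 CPM. MCF10AT1 was the high line and MCF10Ca1a the low one, with the lowest MCF10A library only just above the highest of MCF10Ca1a. BMP4 rose in MCF10AT1 against MCF10A by 1.62 ± 0.200 on the log2 scale (adjusted p = 9.53e-06). It fell by 2.52 ± 0.246 from MCF10AT1 to MCF10Ca1a (adjusted p = 3.73e-07). The difference between MCF10Ca1a and MCF10A was smaller and less certain, at -0.91 ± 0.274 (adjusted p = 0.00756). BMP2 and BMP4 both rose in MCF10AT1 against MCF10A and went opposite ways between MCF10AT1 and MCF10Ca1a. The summed level of 6 fibroblast markers had the same order of lines as BMP4, at 6.43 to 7.196 TPM in MCF10A, 27.7 to 31.5 TPM in MCF10AT1 and 1.94 to 2.33 TPM in MCF10Ca1a. DCN was at a mean of 3.61, 27.9 and 0.329 TPM and COL1A1 at 3.06, 0.961 and 1.79 TPM in the same order, 1 of the 3 tested genes was higher and 1 lower in MCF10AT1 against MCF10A, and LUM and COL3A1 were at a mean of 4.33 counts or fewer in every line; the part of these genes in the result was not tested. The 9 listed BMP4 transcripts could not be separated reliably: the share of BMP4-205 in MCF10AT1 was 63.8% ± 55.3 (SD, n = 3) and that of BMP4-202 25.4% ± 43.9, and each codes for the same length of 408 residues.

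The BMP4 promoter window of RefSeq is shown because BMP4 moved in both directions between the lines. It covers the 250 bases upstream of 1 of the 3 starts listed for BMP4 (GRCh38.p14, chr14:53955051-53955300, minus strand), inside the span of the gene and outside its annotated exons, and is written 5′ to 3′ with the palindrome GGCGCC, a letter pattern known as a SMAD1 and SMAD5 site, in capitals.
BMP4: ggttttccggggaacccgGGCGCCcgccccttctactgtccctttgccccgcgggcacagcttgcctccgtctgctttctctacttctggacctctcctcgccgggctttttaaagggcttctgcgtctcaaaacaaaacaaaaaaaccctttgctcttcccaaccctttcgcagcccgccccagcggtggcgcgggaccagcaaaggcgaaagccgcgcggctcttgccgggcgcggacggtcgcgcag
GGCGCC began at position -232, counted from the start, and was the only such match in the 3 BMP4 windows, and 16.4% of 35116 RefSeq promoter windows of that length hold it on either strand. A match of letters is a description of the sequence and no evidence of binding.

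BMP7 (ENSG00000101144.13, chr20:57168748-57266629, minus strand) encodes a ligand of another branch of the family. It was counted at 1, 3 and 2 in MCF10A, at 0 in all MCF10AT1 libraries and at 2, 3 and 2 in MCF10Ca1a. With 3 counts taken as the floor, which is 0.0430 to 0.0892 CPM over the 9 libraries, BMP7 was at or under it everywhere and no fold is given. Floors cover counting error only.

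BMPR1A (ENSG00000107779.14, chr10:86756601-86932838, plus strand) encodes a type I receptor with high affinity for BMP2 and BMP4. Its level was 49.2, 49.4 and 47.4 CPM in MCF10A, 35.6, 34.96 and 32.5 CPM in MCF10AT1, and 16.7, 14.6 and 15.4 CPM in MCF10Ca1a. The lines formed 3 separate levels in descending order. BMPR1A fell by 0.50 ± 0.0549 on the log2 scale in MCF10AT1 against MCF10A (adjusted p = 2.87e-06). It fell by 1.14 ± 0.0608 from MCF10AT1 to MCF10Ca1a (adjusted p = 6.27e-10), which left it 3.12-fold lower than in MCF10A (log2 change -1.64 ± 0.0605, adjusted p = 1.00e-11). Processed pseudogene copies of BMPR1A, BMPR1AP1 and BMPR1AP2, were listed at no more than 11.2 counts in any library. Of its transcripts, the long coding one, BMPR1A-201, held 35.2% ± 1.54 (SD, n = 3), 42.9% ± 1.67 and 46.1% ± 10.3 of the TPM of the gene in MCF10A, MCF10AT1 and MCF10Ca1a, and 3 shorter ones most of the rest. BMPR1A-202, which codes for 41 residues, held 26.5% ± 2.61, 14.6% ± 0.730 and 11.5% ± 11.04, and BMPR1A-203 and BMPR1A-204, both annotated for nonsense-mediated decay, ranged from 0 to 42.5% and from 0 to 48.4% over single libraries.

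BMPR2 (ENSG00000204217.16, chr2:202376936-202567751, plus strand) encodes the type II receptor dedicated to BMP ligands, which phosphorylates the type I receptor. It was measured at 62.0, 61.7 and 53.0 CPM in MCF10A, 43.7, 42.3 and 46.5 CPM in MCF10AT1 and 32.8, 32.2 and 31.5 CPM in MCF10Ca1a. It descended in the same order as BMPR1A, again without overlap, but by less. The fall was 0.42 on the log2 scale (change -0.42 ± 0.0632, adjusted p = 6.49e-05) in MCF10AT1 against MCF10A and 0.87 (change -0.87 ± 0.0659, adjusted p = 2.16e-08) in MCF10Ca1a against MCF10A. Between MCF10AT1 and MCF10Ca1a the change was -0.46 ± 0.0662 (adjusted p = 2.24e-05), and on the log2(TPM + 1) scale it was -0.19 and did not pass (limma, adjusted p = 0.0672).

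The BMPR2 transcripts behaved differently from one another. BMPR2-202, of 11461 bases with a coding sequence of 1038 residues, is the full-length receptor with a long cytoplasmic tail, and BMPR2-201, of 9683 bases, codes for 530 residues. BMPR2-201 was listed at 2.12, 2.03 and 2.03 TPM in MCF10A and at 1.74, 1.68 and 1.68 TPM in MCF10AT1. In MCF10Ca1a it was listed at 0.188, 0.0279 and 0.0652 TPM. It thus held 19.6% ± 2.28 (SD, n = 3) of BMPR2 TPM in MCF10A, 23.8% ± 0.909 in MCF10AT1 and 1.5% ± 1.29 in MCF10Ca1a. BMPR2-202 was at 8.38 ± 1.28 TPM in MCF10A, 5.39 ± 0.201 TPM in MCF10AT1 and 5.69 ± 0.0746 TPM in MCF10Ca1a, so on this scale its mean in MCF10Ca1a was above that in MCF10AT1. These transcript values come from reads divided between overlapping transcripts, and the uncertainty of that division was not used here; the shares are given without a test.

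**Figure D2:**
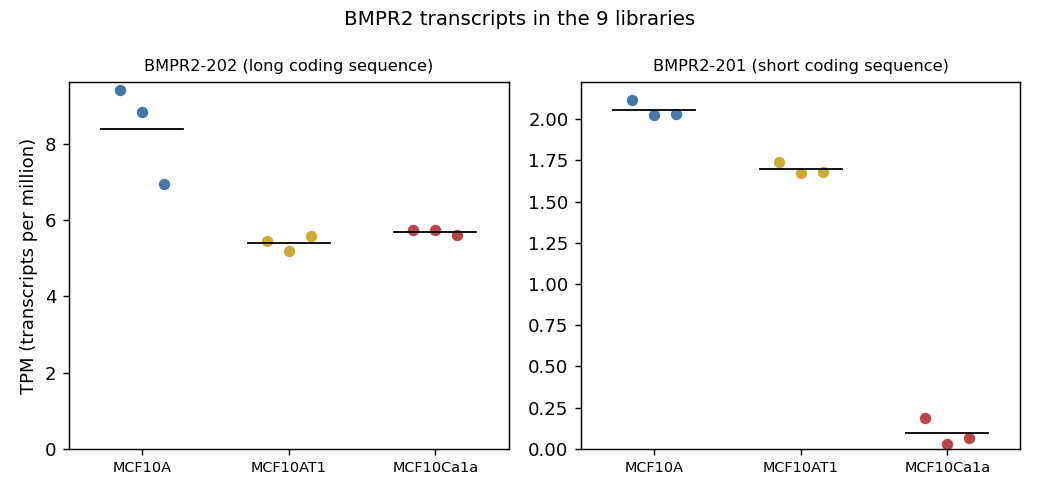
Level in TPM of the long (left) and the short (right) coding transcript of BMPR2 in each library, with the mean of 3 as a line; vertical axes are linear, start at 0 and differ between panels. The short transcript lies between 1.68 and 2.12 TPM in MCF10A and MCF10AT1 and at 0.188 TPM or less in MCF10Ca1a.

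The window upstream of the RefSeq start of BMPR2 is shown as that of a receptor that fell at both steps and that holds both a GGCGCC match and an E-box. It spans chr2:202376077-202376326 (GRCh38.p14, plus strand, 250 bases, 79.2% G and C), outside annotated exons, with GGCGCC and CANNTG, the E-box letters bound by helix-loop-helix factors, in capitals.
BMPR2: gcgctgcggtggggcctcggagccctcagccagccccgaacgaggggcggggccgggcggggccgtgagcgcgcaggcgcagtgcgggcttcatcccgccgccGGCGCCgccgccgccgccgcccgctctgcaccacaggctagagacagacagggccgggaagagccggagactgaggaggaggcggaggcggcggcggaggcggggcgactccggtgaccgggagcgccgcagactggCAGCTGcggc
GGCGCC begins at position -147 and the E-box at -10. CANNTG occurs in 61.8% of all windows, so its presence here is common. The BMPR1A window held no GGCGCC, had CANNTG at -229 and -101 and TATAAA at -28.

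SMAD6 (ENSG00000137834.15, chr15:66702228-66782848, plus strand) encodes an inhibitory SMAD that competes with the signalling SMADs and is itself known as a BMP target. It was sparse, with 31, 37 and 38 counts for MCF10A, 37, 38 and 27 for MCF10AT1, and only 12, 10 and 7 for MCF10Ca1a. Scaled by depth this was 0.483, 0.572 and 0.544 CPM, 0.555, 0.573 and 0.435 CPM, and 0.335, 0.297 and 0.197 CPM. In CPM, MCF10A and MCF10AT1 overlapped, and all MCF10Ca1a libraries lay below both. The overlap was different in TPM. There MCF10AT1 (0.159 to 0.198 TPM) lay below MCF10A (0.232 to 0.258 TPM) and overlapped MCF10Ca1a (0.0861 to 0.173 TPM). The difference between MCF10AT1 and MCF10A was -0.03 ± 0.223 on the log2 scale (adjusted p = 0.919), with a 95% interval from -0.47 to 0.41, and did not pass. SMAD6 fell by 0.94 ± 0.273 in MCF10Ca1a against MCF10A (adjusted p = 0.00591). It was also lower in MCF10Ca1a than in MCF10AT1 (-0.91 ± 0.274, adjusted p = 0.00775), a call that the deposited scaled counts did not give (adjusted p = 0.121). SMAD6-201, which codes for 496 residues, held 58.6% ± 11.7 (SD, n = 3), 59.2% ± 18.2 and 76.6% ± 16.0 of SMAD6 TPM in MCF10A, MCF10AT1 and MCF10Ca1a, the processed transcript SMAD6-205 held 26.5% ± 4.30, 40.8% ± 18.2 and 23.4% ± 16.0, and SMAD6-203 held 14.9% ± 13.8 in MCF10A and was listed at 0 in the other lines.

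ID1 (ENSG00000125968.9, chr20:31605283-31606515, plus strand) was the most abundant of the 10 genes in every line. Its level was 115, 116 and 118 CPM in MCF10A, 86.6, 94.4 and 86.7 CPM in MCF10AT1 and 211, 199 and 213 CPM in MCF10Ca1a. MCF10AT1 was low and MCF10Ca1a high, each apart from MCF10A. ID1 fell by 0.39 ± 0.0526 on the log2 scale in MCF10AT1 against MCF10A (adjusted p = 2.37e-05). It then rose 2.33-fold from MCF10AT1 to MCF10Ca1a (log2 change 1.22 ± 0.0532, adjusted p = 7.96e-11) and ended 1.78-fold above MCF10A (log2 change 0.83 ± 0.0527, adjusted p = 3.01e-09). The transcript ID1-202, which codes for 155 residues, held 95.9% ± 0.459 (SD, n = 3), 95.7% ± 0.233 and 93.3% ± 0.686 of ID1 TPM in MCF10A, MCF10AT1 and MCF10Ca1a.

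The stretch upstream of ID1 is shown as that of the ID gene with the highest level. It covers the 244 bases of the RefSeq window that lie before the annotated exon (GRCh38.p14, chr20:31605039-31605282, plus strand), with the TATA-box letters TATAAA, read on either strand, in capitals.
ID1: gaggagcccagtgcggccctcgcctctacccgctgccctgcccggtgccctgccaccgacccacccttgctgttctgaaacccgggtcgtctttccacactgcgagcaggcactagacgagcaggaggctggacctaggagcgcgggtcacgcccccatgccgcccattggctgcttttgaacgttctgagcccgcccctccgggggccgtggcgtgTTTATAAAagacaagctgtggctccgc
TATAAA matched at positions -33 and -31, which overlap on opposite strands, and 10.7% of all windows hold it. GTCT, the core letters of a SMAD-binding element, matched 3 times in the ID1 window, at -162, -136 and -25, 2 times in that of ID2 and 2 times in that of ID3, and 77.5% of all windows hold it. GTCT matched 1 time in the ID4 window, 4 times in that of BMPR2, 2 times in that of SMAD6 and 0 times in that of BMPR1A. The BMP4 windows held 2, 0 and 2 matches, so GTCT did not set the ID genes apart. None of the windows of ID1, ID2, ID3 and ID4 held GGCGCC, which says only that these letters are not in these 250 bases.

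ID2 (ENSG00000115738.10, chr2:8678845-8684453, plus strand) showed the widest swing of the family. Its level was 3.46, 2.60 and 3.01 CPM in MCF10A, 0.660, 0.664 and 0.596 CPM in MCF10AT1 and 7.32, 6.93 and 7.14 CPM in MCF10Ca1a. The groups lay far apart, and the MCF10AT1 values rest on 44, 44 and 37 counts. ID2 fell 4.70-fold in MCF10AT1 against MCF10A (log2 change -2.23 ± 0.140, adjusted p = 9.89e-09). From MCF10AT1 to MCF10Ca1a it rose 11.1-fold (log2 change 3.47 ± 0.138, adjusted p = 3.26e-11), to 2.36-fold above MCF10A (log2 change 1.24 ± 0.117, adjusted p = 2.36e-07). ID2-203, which codes for 134 residues, held 99.7% ± 0.299 (SD, n = 3), 99.1% ± 1.48 and 97.7% ± 2.25 of ID2 TPM in MCF10A, MCF10AT1 and MCF10Ca1a. The antisense gene ID2-AS1 overlaps ID2 and was listed at 5 to 9 counts for MCF10A, 3 to 8 for MCF10AT1 and 67.0 to 98 for MCF10Ca1a; the libraries are stranded, and whether the counting used the strand is not given in the sources used here.

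ID3 (ENSG00000117318.9, chr1:23557918-23559794, minus strand) stood at 74.9, 74.1 and 76.2 CPM in MCF10A, 18.1, 18.0 and 17.3 CPM in MCF10AT1 and 63.0, 59.4 and 65.7 CPM in MCF10Ca1a. MCF10AT1 was far below both other lines, and MCF10Ca1a came back to just under MCF10A. ID3 fell 4.22-fold in MCF10AT1 against MCF10A (log2 change -2.08 ± 0.0519, adjusted p = 8.89e-13). It rose 3.52-fold from MCF10AT1 to MCF10Ca1a (log2 change 1.82 ± 0.0525, adjusted p = 1.55e-12) and stayed 1.20-fold below MCF10A (log2 change -0.26 ± 0.0492, adjusted p = 2.47e-04). In MCF10Ca1a against MCF10A, ID3 therefore lay on the opposite side from ID1 and ID2. ID3-201, which codes for 119 residues, held 85.9% ± 0.543 (SD, n = 3), 87.2% ± 0.716 and 88.2% ± 1.42 of ID3 TPM in the lines from MCF10A to MCF10Ca1a, and the processed transcript ID3-202 held 11.2% ± 0.226, 10.7% ± 0.859 and 10.4% ± 1.57.

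ID4 (ENSG00000172201.12, chr6:19837386-19840684, plus strand) had 1 count in 1 MCF10AT1 library and in 2 MCF10Ca1a libraries and 0 in the other libraries, at or under the floor of 3 counts in all of them. Since MCF10AT1 was the line grown with less serum, the low point of ID1, ID2 and ID3 coincides with both the line and its medium, which cannot be told apart here. The summed level of 5 leukocyte markers had the same order of lines as ID1 and ID2 and, as for ID3, was lowest in MCF10AT1, at 8.43 to 13.1 TPM in MCF10A, 2.72 to 2.80 TPM in MCF10AT1 and 30.3 to 33.2 TPM in MCF10Ca1a. CD68 made up most of it and was the 1 of the 5 with enough counts to test, and the defining markers PTPRC, LYZ and CD3E were at a mean of 1.67 counts or fewer in every line; the part of these genes in the ID1, ID2 and ID3 results was not tested.

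**Figure D3:**
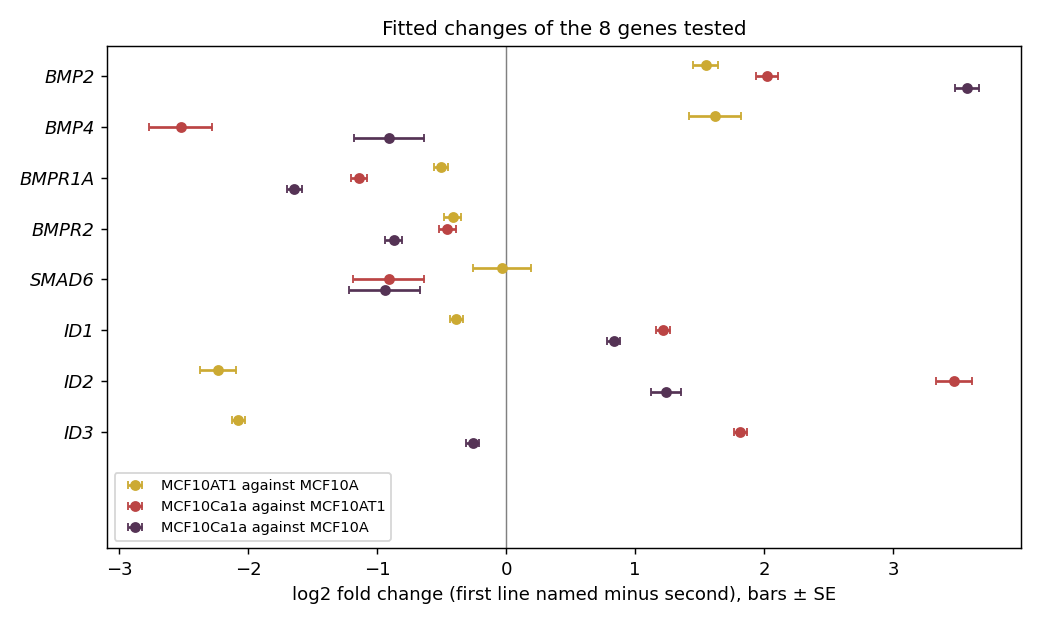
Fitted log2 fold change (horizontal axis) of the 8 tested genes for the 3 comparisons of lines; points are estimates and bars are ± 1 SE. The 3 ID genes are left of 0 for MCF10AT1 against MCF10A and right of 0 for MCF10Ca1a against MCF10AT1, and BMP2 reaches 3.57 in MCF10Ca1a against MCF10A.

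Levels of different genes were compared in TPM, summed over all transcripts of a gene. The long coding transcripts BMPR1A-201 and BMPR2-202 alone were at 8.94 and 8.38 TPM in MCF10A. In MCF10A the order of mean levels was ID1 at 198 TPM, ID3 at 128, BMPR1A at 25.4, BMPR2 at 10.6, ID2 at 4.52, BMP2 at 1.56, BMP4 at 0.494 and SMAD6 at 0.248 TPM, and no neighbours in that order overlapped between libraries. In MCF10AT1, BMP2 (4.02 TPM) and BMP4 (1.32 TPM) stood above ID2 (0.864 TPM). In MCF10Ca1a, BMP2 (19.8 TPM) and ID2 (11.7 TPM) stood above BMPR1A (7.31 TPM) and BMPR2 (6.12 TPM), and these receptors overlapped between libraries and could not be ordered. The ligand thus went from below its receptors in MCF10A to above them in MCF10Ca1a on this scale of RNA level.

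Within families the make-up shifted as well. The summed level of ID1, ID2 and ID3 was 330 ± 20.4 TPM (SD, n = 3) in MCF10A, 163 ± 6.80 TPM in MCF10AT1 and 509 ± 9.76 TPM in MCF10Ca1a. ID1 held 59.8% ± 0.360 of that sum in MCF10A, 82.7% ± 0.562 in MCF10AT1 and 74.8% ± 0.153 in MCF10Ca1a, and ID3 held 38.8% ± 0.340, 16.8% ± 0.559 and 22.9% ± 0.138. The summed level of BMP2, BMP4, BMP6 and BMP8B was 2.40 ± 0.536 TPM, 6.41 ± 0.406 TPM and 23.7 ± 0.896 TPM in the same order. BMP2 held 65.0% ± 1.346, 62.8% ± 0.723 and 83.7% ± 0.146 of it, and BMP4 20.7% ± 0.412, 20.6% ± 0.829 and 1.12% ± 0.399. Among the type I receptors BMPR1A, BMPR1B and ACVR1, the share of BMPR1A was 65.5% ± 1.92 in MCF10A and 37.1% ± 3.33 in MCF10Ca1a. ACVR1, a type I receptor that favours BMP6 and BMP7, held 24.0% ± 1.32 in MCF10A and 57.7% ± 3.06 in MCF10Ca1a. These levels sum all transcripts of a gene, short and non-coding ones included. The long coding BMPR1A-201 alone was at 8.94 TPM in MCF10A and 3.33 TPM in MCF10Ca1a, beside 9.36 and 11.3 TPM for all of ACVR1. The share of BMPR2 among the type II receptors BMPR2, ACVR2A and ACVR2B was 71.2% ± 1.75, 64.4% ± 0.495 and 54.2% ± 2.81. These shares are ratios within a library, so they show unequal change between members of a family and not that any of them stayed the same.

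**Figure D4:**
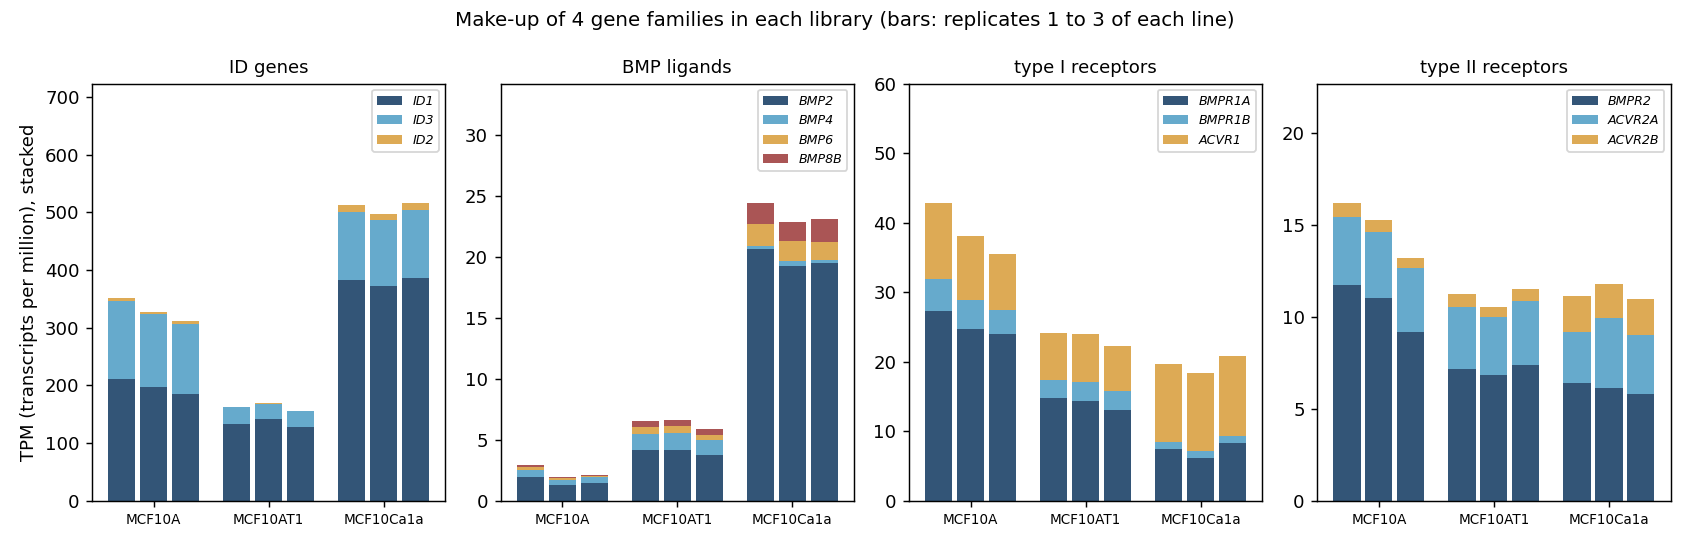
Stacked level in TPM (vertical axis, linear, from 0) of the ID genes, BMP ligands, type I and type II receptors in the 9 libraries; each bar is a library, in replicate order within a line. The ID sum is lowest in MCF10AT1, the ligand sum is mostly BMP2 and highest in MCF10Ca1a, and the BMPR1A part of the type I sum shrinks from 65.5% to 37.1%. Each level sums all transcripts of a gene, short and non-coding ones included.

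The rest of the pathway was described from 7 lists with 59 genes, of which 38 were tested. In MCF10AT1 against MCF10A, 30 of these 38 (78.9%) passed, 10 higher and 20 lower, beside 61.6% of all tested genes. In MCF10Ca1a against MCF10A 33 (86.8%) passed, 11 higher and 22 lower, and in MCF10Ca1a against MCF10AT1 29 (76.3%) passed, 14 higher and 15 lower, both near the 80.9% and 78.4% of all tested genes. The median change of the 38 was -0.18, -0.33 and 0.00 on the log2 scale, beside 0.00, -0.05 and -0.04 for all tested genes.

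Among 11 other ligands only BMP6 and BMP8B had enough counts to test, and both rose at each step, as BMP2 did, where 29.8% (MCF10AT1 against MCF10A) and 38.0% (MCF10Ca1a against MCF10AT1) of all tested genes were higher. BMP8B was at 0.530, 0.433 and 0.301 CPM in MCF10A, 1.99, 1.84 and 1.89 CPM in MCF10AT1 and 5.31, 4.73 and 6.04 CPM in MCF10Ca1a, a rise of 3.67 ± 0.180 on the log2 scale over the series (adjusted p = 1.95e-10). BMP8B has a near-identical neighbour gene, BMP8A, so its reads may be divided between the copies. BMP6, named after its values were seen, rose by 3.18 ± 0.190 (adjusted p = 1.68e-09).

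Of 10 other receptors and co-receptors 8 were tested. In MCF10AT1 against MCF10A 5 passed and all 5 were lower, with a median of -0.39, and in MCF10Ca1a against MCF10A all 8 passed, 6 of them lower, with a median of -0.59. The 5 of 8 are 62.5%, near the 61.6% called among all tested genes (31.8% lower), and the 8 of 8 stand beside 80.9% (41.9% lower). TGFBR3, a co-receptor that presents BMP ligands, was at 16.2, 13.9 and 13.5 CPM in MCF10A, 3.67, 3.24 and 3.64 CPM in MCF10AT1 and 0, 0 and 1 count in MCF10Ca1a. Set against the floor of 3 counts per library, it was at least 169-fold lower in MCF10Ca1a than in MCF10A. BMPR1B, a second type I receptor for BMP ligands, fell by 2.34 ± 0.104 (adjusted p = 6.72e-11), while ACVR2B, a type II receptor shared with activins, rose by 1.41 ± 0.0940 (adjusted p = 5.55e-09). ACVR1 differed by 0.18 ± 0.0720 (adjusted p = 0.0351), its libraries overlapped between these lines, and the call was lost without any one library (adjusted p = 0.0609 to 0.197) other than MCF10A replicate 1 and MCF10Ca1a replicate 2. BMPR1B and ACVR1 were named after their values were seen.

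The SMADs that carry the BMP signal did not move together. SMAD1 was at 24.9, 24.8 and 24.2 CPM in MCF10A, 20.5, 19.4 and 17.9 CPM in MCF10AT1 and 4.81, 5.32 and 4.46 CPM in MCF10Ca1a, and it fell by 2.34 ± 0.0766 on the log2 scale in MCF10Ca1a against MCF10A (adjusted p = 3.02e-12). SMAD9 fell by 1.77 ± 0.116 already in MCF10AT1 (adjusted p = 1.55e-08). SMAD4, the common partner, rose by 0.20 ± 0.0451 in MCF10Ca1a against MCF10A (adjusted p = 8.76e-04). That call was lost without the filter on low counts (edgeR, adjusted p = 0.0768). SMAD5, the most abundant of these in CPM and named after its values were seen, fell by 0.92 ± 0.0506 in MCF10Ca1a against MCF10A by counts (adjusted p = 6.65e-10), but its change on the log2(TPM + 1) scale was 0.00. Of the 4, 2 passed in MCF10AT1 and 4 in MCF10Ca1a, each against MCF10A, beside 61.6% and 80.9% of all tested genes, with medians of -0.23 and -1.27.

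Secreted antagonists bind BMP ligands outside the cell, and 6 of 15 were tested. In MCF10AT1 against MCF10A 4 rose and 1 fell, with a median of 1.55, or 0.71 with a gene at the floor in MCF10A set to its bound, and in MCF10Ca1a against MCF10A 3 rose and 2 fell, with a median of 0.12. Each count is 5 of 6 genes (83.3%), beside 61.6% and 80.9% of all tested genes. NOG, which encodes noggin, a trap for BMP2 and BMP4, was at 0.655, 0.742 and 0.573 CPM in MCF10A, 4.99, 5.13 and 5.43 CPM in MCF10AT1 and 0.615, 0.594 and 0.508 CPM in MCF10Ca1a. It rose by 2.98 ± 0.132 on the log2 scale in MCF10AT1 (adjusted p = 2.95e-10), and its difference between MCF10Ca1a and MCF10A, -0.20 ± 0.180, did not pass (adjusted p = 0.419). MCF10AT1 was also the line where the ID genes were lowest and BMP4 highest, and a link of NOG to these was not tested. FST, which encodes the activin and BMP binder follistatin, rose by 2.73 ± 0.0627 in MCF10AT1 and by 1.98 ± 0.0650 in MCF10Ca1a, each against MCF10A (adjusted p = 3.61e-13 and 3.05e-12). FSTL3, a relative of FST, fell by 0.64 ± 0.0792 in MCF10AT1 (adjusted p = 9.26e-06). TWSG1, which encodes a BMP-binding protein that can also aid signalling, fell by 2.41 ± 0.0567 in MCF10Ca1a against MCF10A (adjusted p = 1.37e-13).

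The 10 membrane and intracellular inhibitors other than SMAD6 were all tested. In MCF10AT1 against MCF10A all 10 passed, 4 higher and 6 lower with a median of -0.24, and in MCF10Ca1a against MCF10A 7 passed, 3 higher and 4 lower with a median of -0.07. The shares over all tested genes were 61.6% and 80.9%, and the 7 of 10 in MCF10Ca1a (70%) lie below that share. TOB1, a repressor that binds receptor-regulated SMADs, rose by 1.11 ± 0.0503 in MCF10AT1 and 1.31 ± 0.0510 in MCF10Ca1a (adjusted p = 3.69e-10 and 1.80e-11). SMAD7, the other inhibitory SMAD, fell by 0.52 ± 0.0773 and 0.92 ± 0.0838 (adjusted p = 5.69e-05 and 1.60e-07), so in MCF10Ca1a both inhibitory SMADs were below MCF10A.

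Of 6 other BMP-responsive genes 5 were tested, and those that passed against MCF10A were all lower, 3 in MCF10AT1 and 4 in MCF10Ca1a, with medians of -1.25 and -1.33, the latter -0.82 with a gene at the floor in MCF10Ca1a set to its bound. These are 60% and 80% of the 5, near the 61.6% and 80.9% called among all tested genes (31.8% and 41.9% lower). HEY1, a repressor of the helix-loop-helix class, fell by 1.76 ± 0.185 in MCF10AT1 (adjusted p = 1.87e-06), and rose by 1.37 ± 0.200 from MCF10AT1 to MCF10Ca1a (adjusted p = 2.33e-05). MSX2, a homeobox gene, fell by 1.47 ± 0.157 in MCF10Ca1a against MCF10A (adjusted p = 9.70e-07), and MSX1, named after its values were seen, fell by 1.33 ± 0.131 (adjusted p = 3.80e-07). While ID1 and ID2 rose above MCF10A in MCF10Ca1a, none of these 5 genes passed above it.

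The E proteins, which ID proteins bind, are encoded by TCF3, TCF4 and TCF12. All 3 passed lower in both comparisons with MCF10A, with medians of -0.49 in MCF10AT1 and -0.81 in MCF10Ca1a, where 31.8% and 41.9% of all tested genes were lower. TCF4 was at 18.4, 16.4 and 14.9 CPM in MCF10A, 6.87, 7.92 and 7.31 CPM in MCF10AT1 and 3.47, 2.53 and 3.05 CPM in MCF10Ca1a, and it fell by 2.46 ± 0.117 on the log2 scale in MCF10Ca1a against MCF10A (adjusted p = 1.46e-10). TCF12 fell by 0.81 ± 0.0520 in MCF10Ca1a (adjusted p = 3.50e-09). Its change of -0.14 ± 0.0502 in MCF10AT1 (adjusted p = 0.0251) was lost with the length-scaled counts (adjusted p = 0.705) and without MCF10A replicate 2 (adjusted p = 0.0623), MCF10AT1 replicate 1 (adjusted p = 0.0624) or MCF10AT1 replicate 3 (adjusted p = 0.0945). The TCF12 call was also lost with scaled counts, without the filter on low counts and with only the lines compared (edgeR, adjusted p = 0.695, 0.0937 and 0.0926). On the TPM scales it did not pass either (limma, adjusted p = 0.0848 to 0.126). TCF3 fell by 0.49 ± 0.0582 in MCF10AT1 (adjusted p = 6.55e-06) and by 0.30 ± 0.0586 in MCF10Ca1a by counts (adjusted p = 3.48e-04), the latter not passing on the log2(TPM + 1) scale (limma, adjusted p = 0.304). TCF3 and TCF12 were named after their values were seen.

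**Figure D5:**
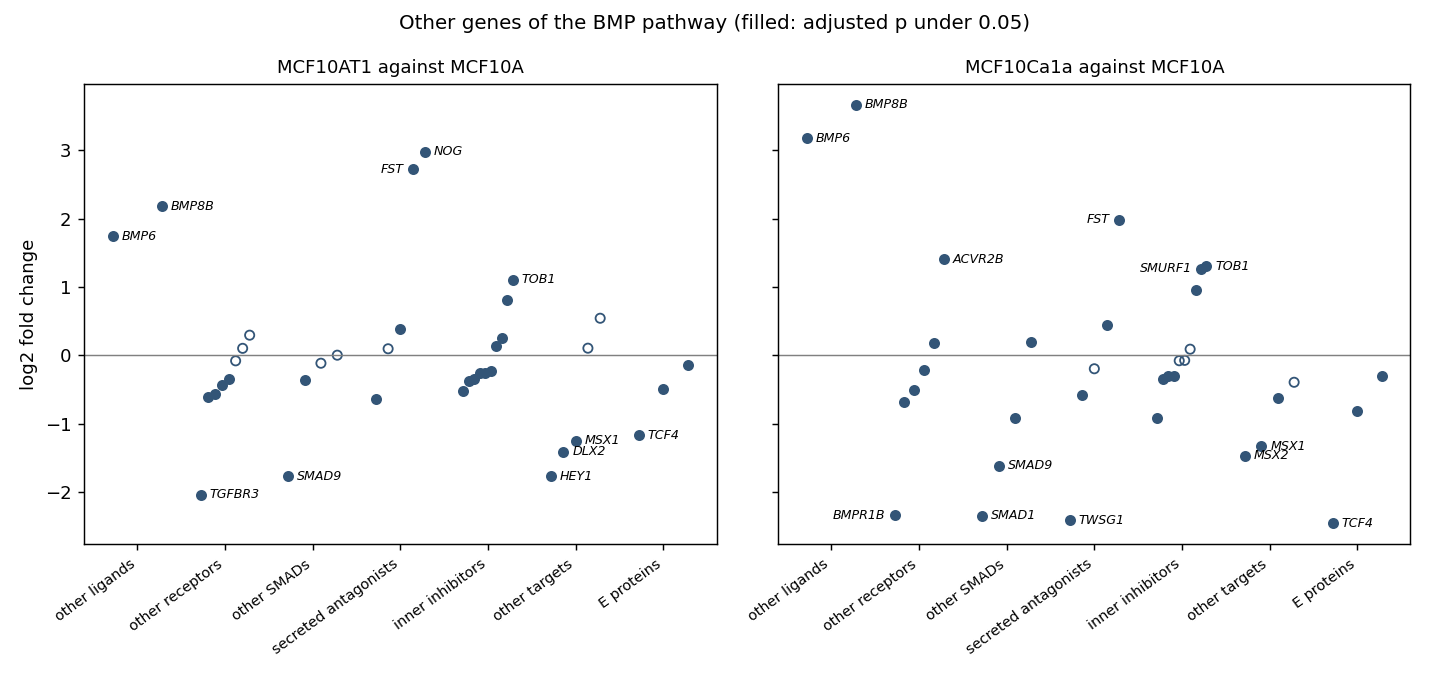
Fitted log2 fold change (vertical axis) of the tested genes in the 7 pathway lists, MCF10AT1 against MCF10A on the left and MCF10Ca1a against MCF10A on the right; each point is a gene, filled where its adjusted p is under 0.05, and genes beyond a change of 1 are named. Genes with a line at 3 counts or fewer in all its libraries are left out of the panel concerned; BMP6 and BMP8B are the highest points on the right and TCF4 the lowest.

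For the tested members other than ID3 the 2 genes nearest in pattern are given, by the root mean square difference of log2 CPM centred on each gene's own mean over the 9 libraries. The nearest to BMP2 were NEDD9 (0.12 on the log2 scale) and TMEM8B (0.13), and to BMP4 they were RPS6KA2 (0.23) and NRG1 (0.23). CIP2A (0.05) and RIOX1 (0.06) were nearest to BMPR1A, and STK25 (0.05) and TRAPPC10 (0.05) to BMPR2. UBL7-DT (0.13) and MRFAP1L1 (0.15) were nearest to SMAD6. ID1 was nearest to SGMS1 (0.05) and CCDC174 (0.06), and ID2 to GAA (0.17) and CD68 (0.18). With 3 lines, many genes can share a pattern of levels. CD68 is also the gene that carried the leukocyte list.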

How the data were processed

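RNA of 3 cell lines was measured in 3 libraries each. The authors deposited estimated counts per gene, length-scaled and scaled counts, and TPM per gene and per transcript. Salmon and hg38 are named in the submitters' processing notes; the version and annotation are not given in the sources used here. A stranded poly-A kit was used, per the labels' protocols.

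The estimated counts that the authors deposited need not be whole and were rounded. The edgeR function filterByExpr, with the lines as groups, a count of 10 and a total of 15 as minimums, left 17910 of 62666 genes. The test was edgeR's quasi-likelihood test (edgeR 4.0.16, R 4.3.3) with TMM factors (0.978 to 1.02), all 9 libraries in 1 fit, and Benjamini-Hochberg adjustment over all tested genes at 0.05. Standard errors are the log2 change divided by the square root of F. The deposited TPM values were used as given for levels between genes and for shares. Library totals were 32.9 to 69.5 M counts. A line at 3 counts or fewer in all its libraries was taken as at the floor.

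No 2 libraries held identical values. Alternatives were DESeq2 size factors and the DESeq2 1.42.0 Wald test, no filter, the other deposited counts, limma 3.58.1 on TPM, a minimum log2 change of 1 (glmTreat), only the lines compared, the replicate number as a block and each of 9 libraries left out. Gene positions are from GENCODE 29 (GRCh38). Promoters are from RefSeq (GRCh38.p14) by symbol, with entries for 8 of the 10 genes, and motifs were searched on both strands.

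The members and lists were chosen with earlier results of these data known. Named genes of each pathway list were those with the largest rise and fall at adjusted p under 0.05 in each line against MCF10A whose mean count reached 100 in the line where it was higher, and those with a line at the floor against such a mean; others are marked in the text as named after their values were seen. Nearest patterns were sought among genes with such a mean in the highest line (those of ID3 are not reported here), and transcripts were described where they held at least 10% of the TPM of the gene in a line.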

Additional observations from a re-analysis of the deposited data

How the results depend on the processing

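Of the results for the 8 tested members, all kept their direction and their side of the threshold when 1 library was left out, except that the small uncalled difference of SMAD6 between MCF10AT1 and MCF10A changed sign (range -0.10 to 0.08). Over these fits the genes called ranged from 10076 to 11155 in MCF10AT1 against MCF10A, 14085 to 14950 in MCF10Ca1a against MCF10A and 13569 to 14722 in MCF10Ca1a against MCF10AT1, and the members called stayed at 7, 8 and 8. Requiring a log2 change above 1 (glmTreat) left 1994, 6252 and 5148 genes, and 4, 3 and 6 members in the same order. On log2(TPM + 1) and log2(TPM + 0.1), SMAD5 changed sign in MCF10Ca1a against MCF10A (0.00166 and 0.00168) and against MCF10AT1 (0.202 and 0.205), and SMAD7 in MCF10Ca1a against MCF10AT1 (0.0182 and 0.0221); without a filter on log2(TPM + 1) the values were 0.00166, 0.202 and 0.0182. The SMAD5 rise against MCF10AT1 passed on log2(TPM + 1) and log2(TPM + 0.1) (limma, adjusted p = 0.00702 and 0.00688). With the length-scaled and scaled counts SMAD5 changed by -0.0868 and -0.0776 in that comparison and did not pass (edgeR, adjusted p = 0.133 and 0.144). The cause of these differences was not tested. BMPR2 in MCF10Ca1a against MCF10AT1 did not pass on any TPM scale (adjusted p 0.0631 to 0.111), and SMAD6 did not with scaled counts or with log2(TPM + 1) without a filter (adjusted p = 0.121 and 0.185). With the replicate block 10846, 14397 and 13917 genes and 7, 8 and 8 members were called; the replicate numbers did not pair the libraries (correlations of -0.0597 to 0.0451 between deviations of same-numbered libraries). BMP4, SMAD6 and, in MCF10AT1, ID2 rest on few counts, and depth limits BMP4 and SMAD6 most in MCF10Ca1a.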

Other observations

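The protein-coding genes within 500 kb of a member were looked up as a description of the surrounding locus. Over all tested genes 29.8% were higher and 31.8% lower in MCF10AT1 against MCF10A, 39.0% and 41.9% in MCF10Ca1a against MCF10A, and 38.0% and 40.3% in MCF10Ca1a against MCF10AT1, and no test set the counts of neighbours against these shares. Near BMP4 both tested neighbours followed its direction at each step: CDKN3, a cell cycle phosphatase gene, changed by 0.49 in MCF10AT1 against MCF10A and by -2.37 in MCF10Ca1a against MCF10AT1 on the log2 scale (edgeR adjusted p = 2.19e-04 and 3.69e-11), and CNIH1 by 0.20 and -1.44 (adjusted p = 0.0286 and 5.71e-10). Near ID1 the 6 tested neighbours went different ways in MCF10Ca1a against MCF10A, 3 higher and 2 lower, among them BCL2L1, a survival gene, at 1.47 (adjusted p = 1.84e-11) and TPX2, a spindle gene, at -1.55 (adjusted p = 6.61e-10). Of the 18 near ID3, 5 were higher and 8 lower in MCF10AT1 against MCF10A, with a median of -0.11 where ID3 itself changed by -2.08. Of the 9 near BMPR2, 4 were higher and 2 lower in MCF10AT1 against MCF10A, with a median of 0.17, and 3 were higher and 6 lower in MCF10Ca1a against MCF10A, with a median of -0.53; BMPR2 itself fell in both. Of the 9 near BMPR1A, which also fell in both, 4 were higher and 2 lower in MCF10AT1 (median -0.13) and 5 higher and 3 lower in MCF10Ca1a (median 0.88), each against MCF10A. Among the BMPR2 neighbours, FZD7, which encodes a Wnt receptor, was higher by 3.65 in MCF10Ca1a against MCF10A (adjusted p = 8.75e-13). Of the 9 near SMAD6, 4 were higher and 3 lower in MCF10AT1 against MCF10A (median 0.04) and 3 higher and 5 lower in MCF10Ca1a against MCF10A (median -0.15). In the same comparisons the 2 near ID2 went opposite ways, the 3 near BMP7 had medians of -0.06 and 0.12, and the single one near ID4 changed by -0.45 and -2.68. These named neighbours were chosen after their values were seen.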
